A study of Mus musculus with 6 samples.

Results

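The Cd209a-positive barcodes of brains bearing a human glioma xenograft were 72 cells, chosen from 39642 barcodes with more than 200 detected genes and under 5% of their unique molecular identifiers (UMIs, counted transcripts) on mitochondrial genes, out of 40411 barcodes in all. A barcode was taken when it held at least 2 UMIs of Cd209a, at least 1 UMI of H2-Aa and under 1% of its UMIs on Cst3, C1qa, C1qb, C1qc, P2ry12 and Tmem119, a set of 6 genes abundant in microglia. The counts of these 8 genes therefore chose the cells, and every value below is a description without a test.

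The cells came from SCID mice, a strain without mature T and B cells, which received 50000 U87 human glioma cells into the brain at 8 weeks of age (the samples are labelled 6 to 8 weeks). In 3 mice the U87 cells expressed IL-33, and in the other 3 they carried the pcDNA vector. Brains of the U87 IL-33 group were taken 3 weeks after implantation and those of the U87 pcDNA group 6 weeks after it, so that tumor type and time cannot be told apart. CD45+ cells of the tumor-bearing hemisphere, sorted after a Percoll gradient, entered droplet sequencing of transcript 3′ ends, and the reads were counted on the mouse genome. Transcripts of the human tumor cells were not analysed here.

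The 6 libraries were deposited as 1 matrix in which a number from 1 to 6 marks the library of each barcode. Neither the sample labels nor the matrix name the mouse behind each number, so no comparison of U87 IL-33 with U87 pcDNA tumors was made, and the whole matrix was treated as 1 sample. Cell numbers per animal given with the study match the barcode totals of the libraries, but groups were taken from the labels alone and this match was not used. All 72 cells lay in libraries 4, 5 and 6. Library 4 held 23 of them among 6238 passing barcodes (0.369%, exact 95% interval 0.234 to 0.553%), library 5 held 18 of 6579 (0.274%, 0.162 to 0.432%) and library 6 held 31 of 6103 (0.508%, 0.345 to 0.720%). Libraries 1, 2 and 3 held none of 7771, 10117 and 2834 barcodes, and a count of 0, read as a limit of 3 counts of the total, allows shares of up to 0.0386%, 0.0297% and 0.106% (the exact two-sided 95% intervals end at 0.0475%, 0.0365% and 0.130%). Intervals and limits of this kind cover counting error only. Libraries 1 to 6 held 19485849, 24393841, 9745192, 17862783, 14701656 and 19371442 UMIs, with median depths of 2429, 2321, 3503, 2491, 1536 and 3017 UMIs per barcode. Of the libraries without such cells, 1 and 2 had the most passing barcodes, and library 3 had the fewest barcodes and UMIs but the highest median depth.

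Some barcode sequences occurred in several libraries. Of 29579 distinct barcode sequences, 3890 occurred in more than 1 library, which touched 14722 barcodes (36.4%), and any pair of libraries shared between 509 and 3428 sequences. Barcodes with a shared sequence were shallow, with a median of 929 UMIs against 3137 for the others. Over the 15 pairs of libraries the UMI totals of shared sequences, on a log10 scale, had Pearson correlations of 0.216 to 0.914, and the source of the sharing was not tested. Of the 72 Cd209a-positive cells only 4 (5.56%) had a sequence that another library also held, and their 4 partner barcodes were all microglial and had no Cd209a UMI. Without shared sequences 68 cells remained.

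**Figure D1:**
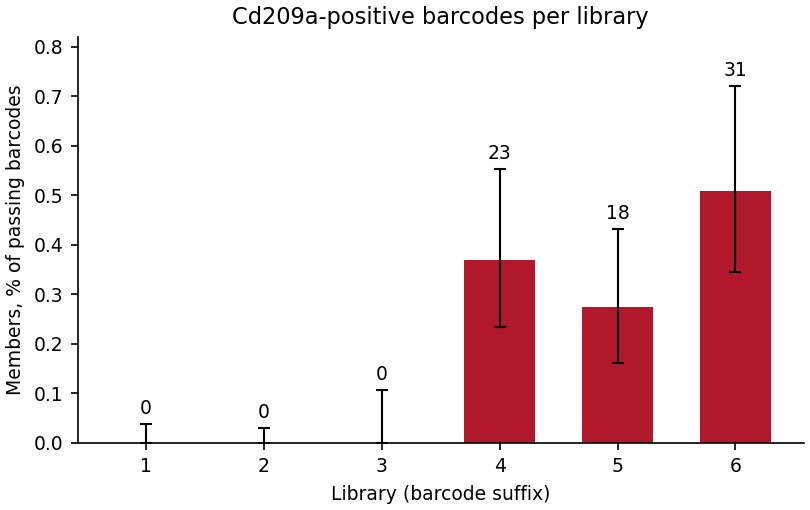
Bars show the share of passing barcodes that met the Cd209a rule in each of the 6 libraries, in percent. Lines are exact 95% binomial intervals for libraries 4, 5 and 6, and for libraries 1, 2 and 3 they end at the limit of 3 counts of the total. The bars of libraries 4, 5 and 6 stand at 0.369%, 0.274% and 0.508%, whereas libraries 1, 2 and 3 stand at 0.

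Cd209a encodes a mouse homologue of DC-SIGN, a C-type lectin that binds carbohydrates on pathogens and host glycoproteins and that marks a subset of type 2 conventional dendritic cells as well as dendritic cells that arise from monocytes. Conventional dendritic cells depend on the growth factor receptor Flt3, whereas monocytes carry Ccr2 and Ly6C, leave the blood in response to Ccl2 and can give rise to macrophages or to cells with dendritic features in inflamed tissue. Both kinds of cell load peptides on MHC class II molecules, with Cd74 as the chaperone, Ciita as the transcriptional master regulator, H2-Aa with H2-Ab1 and H2-Eb1 among the peptide-binding chains, and H2-DM as the peptide exchanger. In the healthy brain such cells are found in the meninges and choroid plexus rather than in the parenchyma, where microglia predominate.

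The sequence that lies around the start of 3 Cd209 genes found in these cells is shown because the detected genes are neighbours in 1 cluster. On GRCm38 the protein-coding genes Cd209a (chr8:3743397-3748984), Cd209e (chr8:3847965-3854309) and Cd209d (chr8:3871824-3878555) are all on the minus strand. Each of the 3 stretches of 30 bases is from the RefSeq promoter table (GRCm38.p6, minus strand, 5′ to 3′), and the capitals mark the longest run of letters that all 3 promoters hold on this strand. They are from chr8:3748973-3749002, chr8:3878549-3878578 and chr8:3854351-3854380.
Cd209a: acttctcaaTTTCTCTTCCTAagtaagatt
Cd209d: agttcctttTTTCTCTTCCTAtcagaatgt
Cd209e: agttccttgTTTCTCTTCCTAagaaagagt
The run TTTCTCTTCCTA begins 9 bases before the RefSeq start of Cd209a, 70 before that of Cd209d and 85 before that of Cd209e. On either strand it occurs in 9 of 32851 promoters of 300 bases (0.0274%), and in 3 of the 6 Cd209 genes with an entry. The letters were chosen after these promoters had been seen.

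The second pair of sequences is shown because the MHC class II genes were among the most abundant of the cells and are read from promoters with known boxes. The capitals mark an X box type match (CTNGNAACT) and the Y box (TGATTGG), both on the strand of the gene, in the 125 bases before the RefSeq start on GRCm38.p6. H2-Aa is shown from chr17:34287824-34287948 on the minus strand and H2-Eb1 from chr17:34305742-34305866 on the plus strand.
H2-Aa: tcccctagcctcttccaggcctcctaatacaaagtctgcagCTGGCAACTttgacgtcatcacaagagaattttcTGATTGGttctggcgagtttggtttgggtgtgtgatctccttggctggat
H2-Eb1: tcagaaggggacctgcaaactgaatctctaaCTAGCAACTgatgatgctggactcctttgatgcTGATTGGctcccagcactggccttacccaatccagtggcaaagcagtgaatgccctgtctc
The boxes begin 84 and 50 bases before the start of H2-Aa and 94 and 61 bases before that of H2-Eb1, with 25 and 24 bases between them. Over both strands and 300 bases, 4.10% of all 32851 promoters hold the X box type match, 7.82% the Y box and 0.350% both. Of 20 MHC class II genes listed, 15 had an entry, of which 8 held the Y box and 3 held both. These matches describe the sequence and are not evidence of binding.

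Expression was read as UMIs summed over a group of barcodes and given per 1000000 UMIs of that group (CPM), and since the assay counts about 1 tag per transcript, no division by length was made. The 72 cells held 380707 UMIs (111573, 86246 and 182888 in libraries 4, 5 and 6), with a median of 5436 UMIs (1721 to 9278) and 1966 genes per cell. They were set beside 38493 microglial barcodes, which had over 3% of their UMIs on the 6 microglial genes and a median of 2483 UMIs. They were also set beside 143 barcodes with at least 1 UMI each of Ccr2 and Ly6c2, at most 1 UMI of Cd209a and the same limit of 1% on the 6 genes, with a median of 4280 UMIs. These Ccr2 and Ly6c2 barcodes, 122 of which lay in libraries 4, 5 and 6, stand for monocytes, but 14 of the 143 held a UMI of the NK cell genes Gzma, Nkg7 or Ncr1 and 12 held at least 3 of 6 plasmacytoid dendritic cell genes. Neither was removed from the main values. In the Cd209a-positive cells the corresponding counts were 0 and 3 of 72.

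Of 4827 genes with a mean of at least 25 CPM over the Cd209a-positive and microglial barcodes, 1170 (24.2%) were at least 2-fold higher in the Cd209a-positive cells and 855 (17.7%) at least 2-fold lower. The median gene stood at a ratio of 1.18 (log2 0.24). With ratios divided by that median, 910 genes were higher and 1045 lower, so the balance of the 2 directions depended on the scaling. Beside the Ccr2 and Ly6c2 barcodes, 257 of 4597 genes were higher (5.59%) and 288 lower (6.26%), with a median ratio of 1.05 (log2 0.06). Restricted to barcode sequences of 1 library, the counts were 1195 and 854 against microglial barcodes and 255 and 303 against Ccr2 and Ly6c2 barcodes. Other settings moved them further, and without library 6 they were 409 and 419 against Ccr2 and Ly6c2 barcodes. Part of each count follows from the rule, since genes that vary with Cd209a, H2-Aa, Ly6c2 or the microglial genes were chosen along with them.

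**Figure D2:**
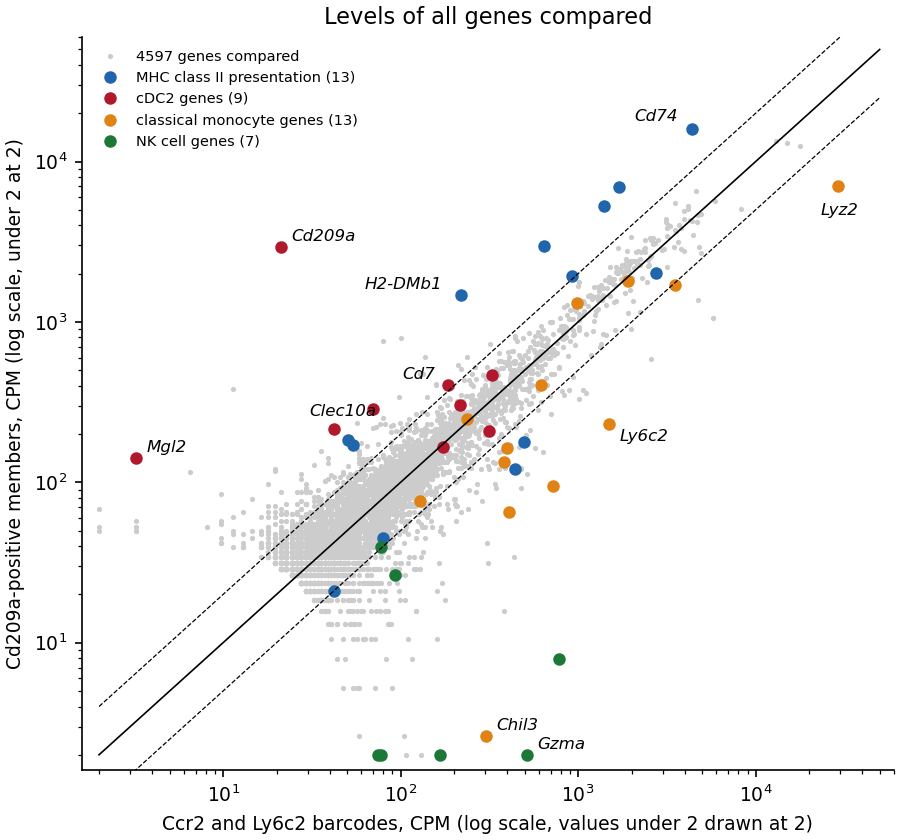
Levels of 4597 genes in the 72 Cd209a-positive cells (y axis, CPM) and in the 143 Ccr2 and Ly6c2 barcodes (x axis, CPM), both on log scales, each point 1 gene, with colors for 4 gene lists and dashed lines at 2-fold. MHC class II genes such as H2-DMb1 and Cd74 lie above the upper line, and the monocyte genes Ly6c2 and Lyz2 below the lower one.

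The label of the cells as dendritic was checked with 5 markers fixed for them, of which Cd209a and H2-Aa were part of the rule. Clec10a, a galactose-binding C-type lectin of type 2 dendritic cells and some macrophages, was at 215 CPM (95% interval 171 to 267), and at 314, 174 and 175 CPM in libraries 4, 5 and 6. Ccr2 was at 1802 CPM (1670 to 1942), and at 1730, 1704 and 1892 CPM in those libraries. Flt3, the receptor for the growth factor of dendritic cells, was at 113 CPM (81.7 to 152), with 108, 104 and 120 CPM. Ccr2 and Flt3 thus varied little between the 3 libraries, and Clec10a was highest in library 4. Against the Ccr2 and Ly6c2 barcodes Clec10a was 5.10-fold higher (95% interval of the ratio 3.24 to 8.26) and Flt3 4.09-fold higher (2.28 to 7.65), whereas Ccr2 was about equal (0.949, 0.862 to 1.04), although it had been required of the other barcodes and not of these cells. The difference in Clec10a was absent from library 5, where the Ccr2 and Ly6c2 barcodes were at 190.5 CPM.

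Cell by cell, Ccr2 was detected in 71 of 72 cells (98.6%), Clec10a in 33 (45.8%) and Flt3 in 25 (34.7%). In microglial barcodes, which are shallower (median 2483 UMIs against 5436), 1.62%, 0.0390% and 0.468% held a UMI of these genes. After thinning to 1000 UMIs, which left out shallower barcodes and kept 72 of 72 of these cells and 29673 of 38493 microglial and 82 of 91 NK barcodes, 53, 12 and 5 of the 72 cells (73.6%, 16.7% and 6.94%) kept one, against 0.694%, 0.0101% and 0.199% of microglial barcodes, so the shares exceeded this background at equal depth. The NK barcodes stood closer for Ccr2, at 39.6% (28.05% after thinning), though still below the Cd209a-positive cells. All 25 cells with Flt3 also held Ccr2. The dendritic transcription factor Zbtb46 gave 7 UMIs in 6 cells (8.33%, against 0.283% of microglial barcodes), and 0 UMIs in the 143 Ccr2 and Ly6c2 barcodes. Xcr1, the chemokine receptor of type 1 conventional dendritic cells, and Ccr7, which guides mature dendritic cells to lymph nodes, had no UMI, so that up to 3 UMIs of 380707 are allowed for each.

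The name "monocyte-derived" was not settled by these markers. Ly6c2, the Ly6C gene of classical monocytes, was found in 26 of 72 cells (36.1%), against 0.374% of microglial barcodes (16.7% and 0.152% after thinning), but also in 28 of 91 NK barcodes (30.8%, median 1550 UMIs) and 14 of 45 granulocyte barcodes (31.1%, median 897 UMIs). After thinning, the shares were 29.3% of 82 NK and 47.4% of 19 granulocyte barcodes, above that of the Cd209a-positive cells. Fcgr1, the high-affinity IgG receptor CD64 often used to tell monocyte-derived from conventional dendritic cells, was found in 19 cells (26.4%). In NK barcodes 1.10% held a UMI of Fcgr1, and after thinning the share in the Cd209a-positive cells was 13.9%, against 0% of NK barcodes. The shares were higher in microglial barcodes (57.8%, 36.5% after thinning) and in Ccr2 and Ly6c2 barcodes (48.95%, 19.7% after thinning). Of the 25 cells with Flt3, 4 held Fcgr1. Origin is not measured by this assay, and the cells are called here by the gene that chose them.

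Several type 2 dendritic cell genes were higher in these cells than in the Ccr2 and Ly6c2 barcodes. Of 14 such genes 9 could be compared, and 5 were higher and none lower, beside 5.59% and 6.26% of all genes, with a median ratio of 2.18. The 5 were Cd209a, which the rule had chosen, Clec10a, Mgl2, Cd7 and Tnip3, so that without Cd209a 4 of 8 were higher. Mgl2, a paralogue of Clec10a, was at 142 CPM, with 80.7, 128 and 186 CPM in libraries 4, 5 and 6, and at 3.25 CPM (2 UMIs) in the Ccr2 and Ly6c2 barcodes, a ratio of 43.6 (11.5 to 370). Mgl2 reached the mean of 25 CPM needed for a comparison only through the Cd209a-positive cells, so a high ratio was fixed by that filter. It was detected in only 13 of 72 cells (18.1%, against 0.0312% of microglial barcodes), up to 13 UMIs in 1 of them. Cd7, an immunoglobulin superfamily receptor known from T and NK cells, was at 405 CPM, with 341, 464 and 416 CPM, 2.18-fold higher (1.70 to 2.81). In library 5, where the Ccr2 and Ly6c2 barcodes held 368 CPM, the difference was smaller than the range over the libraries. Itgax, the integrin CD11c, was low at 55.2 CPM and in 11 cells, with a ratio of 2.83 (1.33 to 6.31) that turned to 0.990 when the limit on microglial genes was 0.5%. Sirpa, an inhibitory receptor of type 2 dendritic cells and macrophages, was at 302 CPM and within 2-fold of these barcodes (1.40, 1.08 to 1.81).

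Of the 7 Cd209 genes, 3 were expressed beyond a few UMIs. Cd209a itself was at 2937 CPM, with 3200, 1936 and 3248 CPM in libraries 4, 5 and 6, at 21.1 CPM in the Ccr2 and Ly6c2 barcodes, where the rule capped it, and at 1.32 CPM in microglial barcodes. Cd209d was at 759 CPM, with 1013, 302 and 820 CPM, and Cd209e at 381 CPM, with 278, 104 and 574 CPM. Library 5 was the lowest for all 3 genes. Against the Ccr2 and Ly6c2 barcodes Cd209d was 9.53-fold higher (7.02 to 13.2) and Cd209e 33.5-fold higher (15.8 to 84.7). Cd209e, at 11.4 CPM in those barcodes, reached the needed mean of 25 CPM only through the Cd209a-positive cells. A ratio above 1 was fixed for it by that filter. Cd209d was detected in 40 cells (55.6%) and Cd209e in 23 (31.9%), 19 of which held both, whereas 0.0260% and 0.00260% of microglial barcodes held a UMI of them. Cd209b gave 1 UMI, Cd209c 4 UMIs, and Cd209f and Cd209g none. No stretch of 31 bases of the Cd209a, Cd209d or Cd209e transcripts occurs in a transcript of another Cd209 gene, so 31-base matches would not confuse these 3 genes.

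MHC class II presentation had the largest sum of the 34 gene lists. Of 20 listed genes 13 could be compared with the Ccr2 and Ly6c2 barcodes, and 8 were higher and 3 lower, beside 5.59% and 6.26% of all genes, with a median ratio of 3.18. Without H2-Aa, which the rule had chosen, 7 of 12 were higher. The list sum, H2-Aa included, was 37394 CPM against 13222 CPM. Cd74 was the most abundant gene of all at 15981 CPM, with 14143, 15908 and 17136 CPM in libraries 4, 5 and 6. In the Ccr2 and Ly6c2 barcodes Cd74 was at 4395 CPM (3301, 8612 and 4213 CPM in the same libraries), so the values of the 2 populations did not overlap and the ratio was 3.64 (3.47 to 3.81). H2-Eb1 was at 2979 CPM (2178, 3374 and 3281 CPM) against 639 CPM, a ratio of 4.66 (4.15 to 5.24).

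Genes of the loading machinery followed the same direction. H2-DMb1, a chain of the peptide exchanger H2-DM, had the highest ratio of the list at 6.72 (5.55 to 8.17), with 1398, 1623 and 1427 CPM in libraries 4, 5 and 6 against 206, 356 and 203 CPM. H2-DMb2, the second beta chain, was at 171 CPM with a ratio of 3.18 (2.06 to 5.00), and H2-DMa at 1941 CPM with 2.10 (1.88 to 2.34). Ciita was at 184 CPM with 108, 139 and 252 CPM, 3.65-fold higher (2.36 to 5.76). No value of H2-DMb1 or Ciita in the 3 libraries overlapped between the populations. The 3 lower genes were Ctsl and Lgmn, lysosomal proteases, with ratios of 0.273 and 0.361, and Rfxap, a subunit of the factor that binds the X box, with 0.497 from 8 UMIs. The counting interval of Rfxap was 0.195 to 1.13 and does not separate the populations. H2-Aa was required of the Cd209a-positive cells and not of the others, so genes that vary with it were selected too.

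Microglia can carry MHC class II as well, and 541 microglial barcodes with at least 2 UMIs of H2-Aa were a closer comparison for this program. Libraries 1 to 6 held 282, 70, 17, 49, 48 and 75 of them, so most lay in libraries without Cd209a-positive cells. The comparison was not repeated within libraries 4, 5 and 6, so differences between libraries can enter its ratios. Of 4716 genes compared with these 541 barcodes, 1098 (23.3%) were higher and 713 (15.1%) lower in the Cd209a-positive cells. Cd74 was at 7032 CPM in these microglial barcodes, a ratio of 2.27, and H2-Eb1 at 1144 CPM, a ratio of 2.60. Ciita was at 28.9 CPM and 6.37-fold higher in the Cd209a-positive cells, while Ctss, the cathepsin that trims the Cd74 chain, was at 2017 CPM against 10057 CPM, a ratio of 0.201. Of the MHC class II list 8 of 14 genes were higher and 3 lower, with a median ratio of 2.28 beside 1.26 (log2 0.33) over all genes. H2-Aa, which chose both populations, is among the genes counted as higher.

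**Figure D3:**
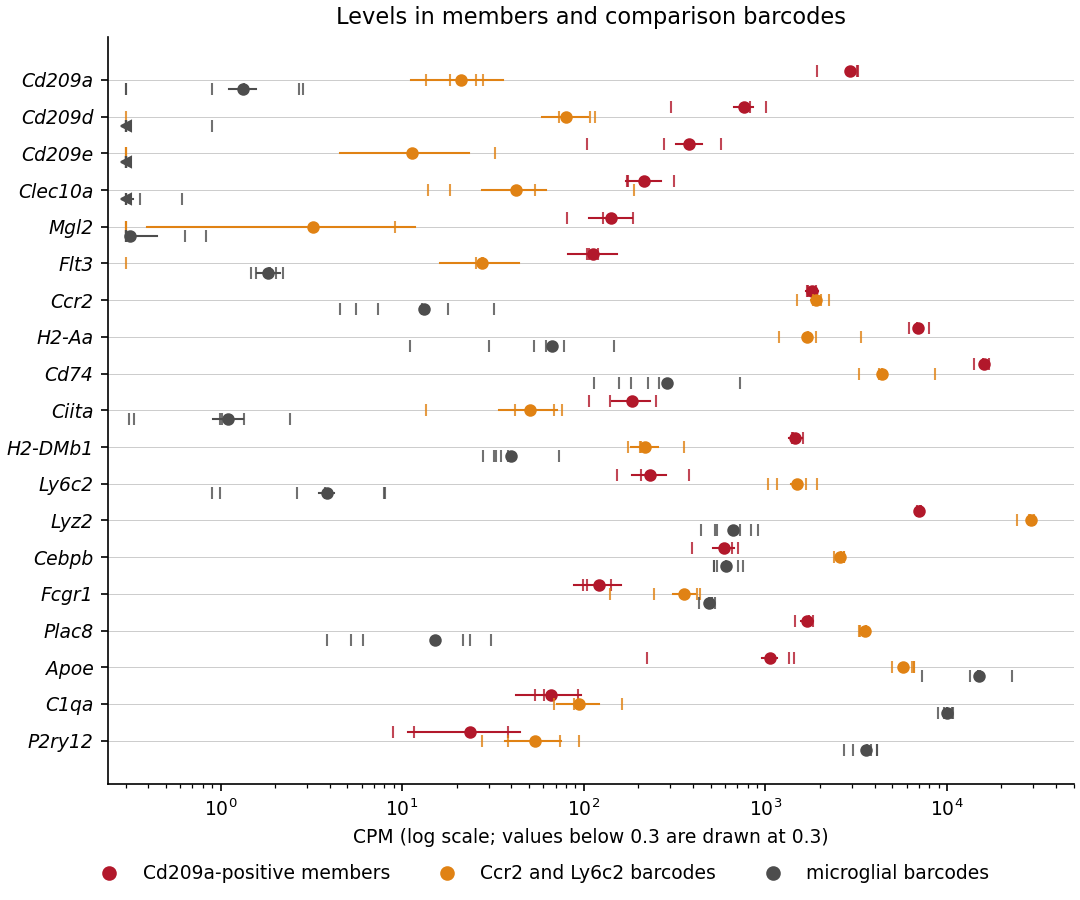
Levels of 19 genes in the Cd209a-positive cells, the Ccr2 and Ly6c2 barcodes and the microglial barcodes, as CPM on a log axis. Large points are summed levels with exact 95% counting intervals and small marks are single libraries (values under 0.3 CPM are drawn at 0.3), and Cd209a, Cd209d, Cd209e, Mgl2 and Clec10a are highest in the Cd209a-positive cells, Lyz2 and Cebpb in the Ccr2 and Ly6c2 barcodes.

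Genes of classical monocytes were present but lower than in the Ccr2 and Ly6c2 barcodes, which Ly6c2 had chosen. Of 15 genes 13 could be compared, 8 were lower and none higher, beside 6.26% and 5.59% of all genes, with a median ratio of 0.411, and against microglial barcodes all 12 compared were higher, beside 24.2% of all genes, with a median ratio of 61.9. The list sum was 13283, 13264 and 13227 CPM in libraries 4, 5 and 6 and hardly differed between them. Lyz2, lysozyme of monocytes and macrophages, was at 7024 CPM, with 7197, 7142 and 6862 CPM, against 28987 CPM (0.242, 0.233 to 0.252). Plac8 was at 1699 CPM against 3532 CPM (0.481), and Hp, which encodes haptoglobin, at 94.6 CPM against 718 CPM (0.132, 0.0910 to 0.185). Chil3, a chitinase-like protein of monocytes and alternatively activated macrophages, gave 1 UMI, against 302 CPM, a ratio of 0.00869 with a counting interval of 0.000219 to 0.0490.

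Of 12 macrophage genes compared with the Ccr2 and Ly6c2 barcodes, 6 were lower and none higher, beside 6.26% and 5.59% of all genes, with a median ratio of 0.453, and Lyz2 is on this list and on that of the monocytes. Apoe, the lipid carrier apolipoprotein E, was at 1059 CPM, with 224, 1345 and 1433 CPM in libraries 4, 5 and 6, against 6607, 6593 and 5009 CPM. Library 4 was the lowest for Apoe, and its values in these libraries did not overlap between the populations. Few cells carried this level of Apoe: the median cell was at 163 CPM, 26 of 72 were at 0, and 4 cells gave 44, 48, 51 and 115 of the 403 UMIs. Cebpb, a transcription factor of monocyte and macrophage programs, was at 591 CPM against 2576 CPM (0.229, 0.199 to 0.264), and Fcgr1 at 121 CPM against 358 CPM (0.338, 0.240 to 0.466).

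Microglial genes were low, as the rule had fixed for 6 of them. Of 18 such genes 17 were compared with microglial barcodes and all were lower, beside 17.7% of all genes. Sall1, Fcrls and Slc2a5 had no UMI. The list sum was 6167 CPM against 117156 CPM in microglial barcodes, and Cst3, the cystatin C gene, made 4917 CPM of it and was present in 72 of 72 cells. C1qa was at 65.7 CPM and detected in 20 of 72 cells (27.8%), and in 26 of 91 NK barcodes (28.6%). P2ry12 was at 23.6 CPM and detected in 9 cells (12.5%), and in 10 of 91 NK barcodes. After thinning to 1000 UMIs the shares were 8.33% and 14.6% for C1qa and 2.78% and 6.10% for P2ry12, in these cells and NK barcodes. The part of this RNA in the other results was not tested.

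Most markers of lymphoid and granulocytic cells had no UMI. Gzma and Nkg7, cytotoxic genes of NK cells, had no UMI, against 515 and 166 CPM in the Ccr2 and Ly6c2 barcodes, so that they were at least 65.4-fold and 21.0-fold lower with a floor of 3 counts over the cells. These levels were carried by 9 and 14 of the 143 barcodes. Of 12 NK cell genes 9 were at 0 in the Cd209a-positive cells, and Klrd1, a receptor subunit of NK cells, was found in 13 of them (39.4 CPM, against 1794 CPM in NK barcodes). Without the barcodes that held Gzma, Nkg7 or Ncr1, 268 genes were higher and 296 lower. The granulocyte genes S100a8 and S100a9 had no UMI, and 9 of 12 granulocyte genes were at 0. Of 8 T cell genes 6 were at 0, with a list sum of 7.88 CPM, and 5 of 8 B cell genes were at 0, with a list sum of 168 CPM against 306 CPM in the Ccr2 and Ly6c2 barcodes. The immunoglobulin gene Ighm was at 160 CPM in 28 of 72 cells (38.9%), and was also in 44.8% of microglial barcodes, at 304 CPM.

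Plasmacytoid dendritic cell genes differed in how many of the cells held them. The list sum was 948 CPM, against 1232 CPM in the Ccr2 and Ly6c2 barcodes. In libraries 4, 5 and 6 it was 439, 1716 and 897 CPM. Its most abundant gene was Bst2, a membrane protein induced by interferon, found in 43 of 72 cells (59.7%, 26.4% after thinning). A UMI of Bst2 was in 17.4% of microglial, 12.1% of NK and 51.75% of Ccr2 and Ly6c2 barcodes (7.775%, 8.54% and 20.4% after thinning). Siglech, a lectin of plasmacytoid dendritic cells and of microglia, was at 110 CPM with 26.9, 302 and 71.1 CPM and detected in 11 cells (15.3%, against 2.20% of NK barcodes). Siglech is also on the microglial list, where every gene compared was lower than in microglial barcodes. Irf8, a transcription factor of dendritic and monocyte lineages, was at 407 CPM with 126, 603 and 487 CPM, in 29 cells (40.3%), below the 76.5% of microglial and 79.1% of NK barcodes (18.1%, 54.5% and 68.3% after thinning). Library 5 was the highest for both genes, where 2 cells gave 11 and 14 of the 26 UMIs of Siglech and 13 and 23 of the 52 UMIs of Irf8. Of 72 cells 3 held 3 or more of the 6 genes Siglech, Ccr9, Klk1, Cox6a2, Pacsin1 and Ly6d, against 12 of 143 Ccr2 and Ly6c2 barcodes.

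Of 12 type 1 dendritic cell genes 6 could be compared with the Ccr2 and Ly6c2 barcodes, and 2 were higher and none lower, beside 5.59% and 6.26% of all genes, with a median ratio of 1.15. The 2 were Cd24a, a mucin-like surface protein, at 86.7 CPM (3.33, 1.78 to 6.49), and Wdfy4, which takes part in cross-presentation, at 47.3 CPM (2.91, 1.27 to 7.05). Batf3, a transcription factor needed by type 1 dendritic cells, was at 142 CPM against 133 CPM (1.06, 0.740 to 1.52), and Clec9a, their receptor for dead cells, gave 7 UMIs in 6 of 72 cells and 3 UMIs in 2 of the 143 Ccr2 and Ly6c2 barcodes. Among migratory dendritic cell genes, Il4i1, an amino acid oxidase, was at 49.9 CPM against 1.63 CPM (30.7, 4.88 to 1276), but at 17.9, 0 and 93.0 CPM in libraries 4, 5 and 6. It reached the mean of 25 CPM needed for a comparison only through the Cd209a-positive cells, so a high ratio was fixed by that filter. Ccl17, a chemokine of mature dendritic cells, gave 26 UMIs that all came from 1 cell of library 6. Cd83, a maturation marker, was 3.05-fold higher (1.68 to 5.74) at 89.3 CPM, with 71.7, 23.2 and 131 CPM. Of 10 costimulation and checkpoint genes compared, 2 were higher and 2 lower, beside the same shares of all genes, and Cd86 and Cd40, partners of T cell CD28 and CD40 ligand, were within 2-fold at ratios of 0.895 and 1.05.

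Chemokine and interferon genes were mostly below the Ccr2 and Ly6c2 barcodes. Of 13 chemokine ligand genes compared 7 were lower and 1, Ccl17, higher, beside 6.26% and 5.59% of all genes, with a median ratio of 0.423. Cxcl2, a neutrophil attractant, was at 1366 CPM, with 1640, 2736 and 552 CPM, against 4756 CPM. Its range over the libraries was wide, and 1 cell of library 5 gave 131 of the 520 UMIs of Cxcl2. Ccl5 gave 3 UMIs in 3 cells (7.88 CPM) against 777 CPM, a ratio of 0.0101 with a counting interval of 0.00208 to 0.0298, but in the Ccr2 and Ly6c2 barcodes it was detected in 15 of 143, while 91 of 91 NK barcodes held it. Without the barcodes that held Gzma, Nkg7 or Ncr1, the Ccl5 ratio to Ccr2 and Ly6c2 barcodes was 0.357. Ccl24 gave 6 UMIs (15.8 CPM) against 380 CPM (0.0414, 0.0150 to 0.0916). Of 10 interferon response genes 8 were lower and none higher, beside the same shares of all genes, with a median ratio of 0.304. Isg15, a ubiquitin-like modifier induced by interferon, was at 76.2 CPM against 288 CPM, a ratio of 0.265. Irf7, an interferon-induced transcription factor, had a ratio of 0.356 (0.267 to 0.469). In the other direction, Ifitm1, a membrane protein of the interferon-induced family that is not on that list, was at 798 CPM, with 860, 986 and 673 CPM, against 101 CPM (7.92, 6.01 to 10.6).

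The list of S100 and annexin genes also held the galectins Lgals1 and Lgals3 and Vim. Of its 12 genes 10 could be compared with the Ccr2 and Ly6c2 barcodes, and none was higher or lower, beside 5.59% and 6.26% of all genes, with a median ratio of 1.24. Against microglial barcodes 10 of 12 were higher, beside 24.2% of all genes, and S100a8 and S100a9 were lower. S100a6 was at 3226 CPM against 2821 CPM in the Ccr2 and Ly6c2 barcodes and 21.6 CPM in microglial barcodes. Vim, an intermediate filament protein, was at 3388 CPM against 1997 and 16.9 CPM, and Crip1, a LIM domain protein, at 5479 CPM against 3533 and 26.2 CPM. Both were within 2-fold of the Ccr2 and Ly6c2 barcodes and over 100-fold above microglial ones.

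Among the 15 genes named by rule for high ratios to the Ccr2 and Ly6c2 barcodes were several outside these lists. These 15 are not the highest of all compared genes. Il4i1, with a higher ratio than most of them but no UMI in library 5, is not among them. Kcne3, a potassium channel subunit, was at 116 CPM, with 179, 58.0 and 104 CPM in libraries 4, 5 and 6, and 17.8-fold higher (6.47 to 68.1). Sigirr, an inhibitory member of the IL-1 receptor family, was at 57.8 CPM in 19 cells, with 80.7, 58.0 and 43.7 CPM, against 3.25 CPM (17.8, 4.37 to 156). Zbtb32, a transcriptional repressor, was at 121 CPM with 152, 104 and 109 CPM, 6.20-fold higher (3.23 to 12.8). In each of these genes all 3 libraries exceeded the values of the other barcodes, the highest of which was 41.6 CPM for Zbtb32 in library 6. Naming required the same direction in every library with at least 10 barcodes of both populations, so a higher level within each library was fixed by it. Alox5 (5-lipoxygenase) was 15.4-fold higher (3.70 to 136), from 19 UMIs in 7 cells, a share of 9.72% beside 10.8% of microglial barcodes. Basp1 had the same level and ratio in 14 cells (19.4%, against 61.7% of microglial barcodes). Its ratio turned to 0.233 when the Ccr2 and Ly6c2 barcodes were taken without the microglial limit. In the Ccr2 and Ly6c2 barcodes Kcne3 was at 6.50 CPM, and Sigirr, Alox5 and Basp1 were each at 3.25 CPM. They reached the mean of 25 CPM needed for a comparison only through the Cd209a-positive cells, so a high ratio was fixed by that filter. For Zbtb32, at 19.5 CPM in those barcodes, a ratio above 1 was fixed in the same way. Cdh1, which encodes E-cadherin, was among the 15 genes named in this way against microglial barcodes instead, at 97.2 CPM and 547-fold. It was 5.44-fold higher (2.71 to 11.8) than in the Ccr2 and Ly6c2 barcodes. With 0.178 CPM in microglial barcodes, Cdh1 also passed the filter there only through the Cd209a-positive cells.

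The IL-33 receptor gene Il1rl1 gave 1 UMI in 72 cells and none in the Ccr2 and Ly6c2 barcodes, and mouse Il33 none. Of 5 pathway genes compared 1 was higher, beside 5.59% of all genes. It was Nfkb1, a subunit of NF-kB, at 341 CPM with 412, 302 and 317 CPM against 97.5 CPM (3.50, 2.56 to 4.84), and in no library did the other barcodes reach these values. Myd88, the adaptor of the IL-1 and Toll-like receptors, was at 208 CPM with a ratio of 0.798 (0.602 to 1.05). Of 12 growth factor receptors compared 1 was higher (Flt3) and 2 were lower, beside 5.59% and 6.26% of all genes. Csf1r, the receptor of macrophage colony-stimulating factor, was at 349 CPM against 442 CPM, and Csf2ra, a chain of the granulocyte-macrophage receptor, at 202 CPM against 161 CPM. Both ratios, 0.790 and 1.26, were within 2-fold.

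C-type lectins were divided. Of 15 compared with the Ccr2 and Ly6c2 barcodes, the Cd209 genes included, 7 were higher and 5 lower, beside 5.59% and 6.26% of all genes, with a median ratio of 0.769. Without Cd209a, 6 of 14 were higher. The higher ones included, beside Cd209a, Cd209d, Cd209e, Clec10a and Mgl2, the mannose receptor Mrc1 at 142 CPM with 117, 92.8 and 180 CPM (3.64, 2.21 to 6.15). The lower ones included Clec12a, an inhibitory receptor for uric acid crystals, at a ratio of 0.344, Clec4e, which binds mycobacterial glycolipid, at 0.286, and Clec4d at 0.274.

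The cells varied widely among themselves. Over single cells Cd74 ran from 0 through a median of 11652 to 51903 CPM, H2-Aa from 150 through 5775 to 23267 CPM and Cd209a from 318 through 2407 to 10104 CPM. Lyz2 ran from 0 in 16 cells through a median of 1227 to 52312 CPM, and it was therefore used to order the cells. This split and those by Ly6c2 and by Flt3 below were chosen after the values had been seen. The 24 cells highest and the 24 lowest in Lyz2 had close depths (medians of 5347 and 5648 UMIs) and came from libraries 4, 5 and 6 in numbers of 8, 7 and 9 and of 6, 5 and 13.

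Several monocyte and macrophage genes were higher in the group high in Lyz2. Ly6c2 was at 322 CPM there and at 368 CPM in the group low in Lyz2, where 3 cells gave 10, 12 and 11 UMIs. More cells held a Ly6c2 UMI in the group high in Lyz2. Cebpb was at 1493 CPM in the group high in Lyz2 and at 81.8 CPM in the cells low in Lyz2, and Cxcl2 at 3480 and 73.7 CPM. Fcgr1 was at 298 CPM and at 8.18 CPM, where it rested on 1 UMI (ratio 36.5, 6.16 to 1478). In libraries 4, 5 and 6 Cebpb was at 766, 1767 and 1914 CPM in the group high in Lyz2 and at 149, 90.6 and 54.6 CPM in the other. The direction was the same in all 3 libraries for Cebpb.

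The group low in Lyz2 held another set. Cd7 was at 851 CPM in 19 of 24 cells and at 23.6 CPM in the group high in Lyz2, where 1 cell gave all 3 UMIs, with 929, 724 and 861 CPM in libraries 4, 5 and 6 against 69.7, 0 and 0 CPM. Cd209d was at 1277 and 134 CPM, Tcf4, a transcription factor of plasmacytoid and pre-dendritic cells, at 540 and 62.9 CPM, and Bcl11a, a transcription factor needed for plasmacytoid dendritic cells, at 286 and 23.6 CPM. Mgl2 was at 303 and 15.7 CPM, but 3 cells of library 6 gave 7, 11 and 13 of its 37 UMIs, and in libraries 4 and 5 it was highest in the cells between the groups (168 and 198 CPM). Slamf9, a SLAM family receptor, was at 221 CPM in 10 cells against 1 UMI. Irf8 was at 1007 and 157 CPM, but in library 4 the order was the opposite, with 37.2 CPM in the group low in Lyz2 and 232 CPM in the highest. Without the 3 cells that held at least 3 plasmacytoid genes, the group low in Lyz2 had 824 CPM of Cd7, 1385 CPM of Cd209d, 398 CPM of Tcf4 and 480 CPM of Irf8, and Siglech dropped from 303 to 36.2 CPM. Cd209a differed less, with 2435 CPM in the highest and 2995 CPM in the group low in Lyz2, as did Flt3 with 86.4 and 131 CPM.

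**Figure D4:**
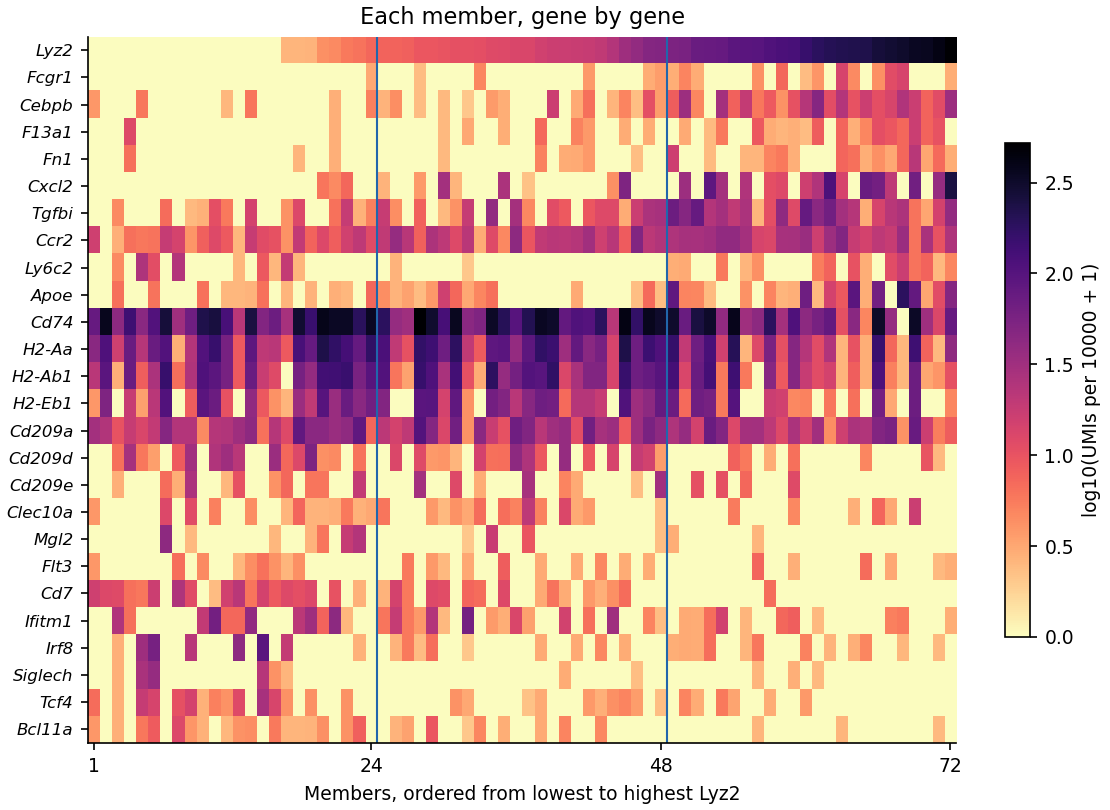
Each column is 1 of the 72 Cd209a-positive cells, ordered from lowest to highest Lyz2, each row 1 gene, and the color the log10 of UMIs per 10000 plus 1. Vertical lines part the cells into groups of 24, and Fcgr1 and Cebpb are mostly in the right group, Cd7 and Bcl11a mostly in the left.

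Ly6c2 parted the cells in MHC class II and in monocyte and macrophage genes. The 26 cells with a Ly6c2 UMI (6, 10 and 10 in libraries 4, 5 and 6) and the 46 without (17, 8 and 21) had median depths of 5470 and 5403 UMIs. H2-Aa was at 2598 CPM with Ly6c2 and at 9442 CPM without, and in libraries 4, 5 and 6 at 1123, 4371 and 1930 CPM against 8223, 12685 and 9248 CPM. H2-Eb1 was at 721 and 4293 CPM, H2-Ab1 at 1456 and 7564 CPM and Cd74 at 6682 and 21394 CPM. The 2 groups of H2-Aa values did not overlap over the libraries. The classical monocyte and macrophage list sums, which both hold Lyz2, were higher with Ly6c2, at 20602 against 8972 CPM and 17661 against 6059 CPM. Lyz2 was at 18475, 8763 and 13101 CPM with Ly6c2 in libraries 4, 5 and 6, against 2653, 5015 and 3885 CPM without. Cebpb was higher with Ly6c2 in each library. Ccr2 hardly differed, at 1735 and 1841 CPM, whereas Mgl2 was at 28.6 and 208 CPM, Clec10a at 85.7 and 291 CPM and Cd209e at 143 and 520 CPM. For Cd209e library 5 had the opposite order (123 and 80.4 CPM). Siglech was at 278 CPM with Ly6c2 and 12.5 CPM without, but 3 cells gave 8, 11 and 14 of the 39 UMIs of the cells with Ly6c2.

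Cells with and without a Flt3 UMI, 25 and 47, were at 7466 and 6776 CPM of Lyz2, but at 11187 and 5816 CPM in library 4, 9845 and 5604 CPM in library 5 and 5110 and 8134 CPM in library 6, so the direction differed between libraries. Kmo, an enzyme of tryptophan breakdown, was at 219 and 49.2 CPM, Dpp4, the peptidase CD26, at 117 and 36.9 CPM, and Fcgr3, a low-affinity IgG receptor, at 80.4 and 500 CPM. Mgl2 was at 21.9 CPM with Flt3 and 209 CPM without, and it was detected in 3 of the cells with Flt3 and 10 of those without.

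Of 119 passing barcodes with at least 2 UMIs of Cd209a, 23 had no H2-Aa, 20 had H2-Aa but at least 1% on the microglial genes and 4 met neither condition. Just inside the rule lay 4 cells with 2 UMIs of Cd209a, with 3769 CPM of H2-Aa and 14659 CPM of Lyz2, and 6 cells with 1 UMI of H2-Aa. Just outside lay 8 barcodes with 1 UMI of Cd209a that met the other conditions, with 3890 CPM of H2-Aa, 10676 CPM of Lyz2 and 2215 CPM of Irf8. The 23 barcodes without H2-Aa had 25356 CPM of Lyz2 and 1178 CPM of Ly6c2. The share of UMIs on the 6 microglial genes had a median of 0.480% in the Cd209a-positive cells (0.221 to 0.988%), nearly all of it Cst3 with a median of 0.454%, and was under 0.5% in 40 cells. It had a median of 8.43% in microglial barcodes.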

How the data were processed

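CD45+ cells of 6 mice were measured by 10x 3′ sequencing. The deposited values are raw UMI counts of 31053 genes in 40411 barcodes (105560763 UMIs), which the authors made with Cell Ranger 3.1 on mm10 and combined into 1 matrix. Per the labels Seurat 3.1.5 was also used. Barcodes kept had over 200 genes and under 5% mitochondrial UMIs. No doublet caller was run, and the limit on microglial genes removes barcodes with much microglial RNA.

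Counts were summed per population and given as CPM with exact Poisson 95% intervals, ratios with exact conditional binomial intervals and shares with Clopper-Pearson intervals. They cover counting error only. A gene was compared at a mean of 25 CPM or more over both populations and called at a ratio of at least 2 or at most 0.5. A gene under 25 CPM in 1 population passed only through the other, so its direction was fixed by this filter. With a count of 0, 3 counts were the floor. Cells are not replicates, and since neither labels nor matrix tie a library to a mouse the matrix was treated as 1 sample, so no test was run. Genes named by rule were 15 with high and 15 with low ratios in each comparison and the listed genes (34 lists, 389 of 394 genes matched). The 15 were not ranked over all compared genes. A per-library minimum of 10 was among the settings, and Il4i1 was left out despite a higher ratio to Ccr2 and Ly6c2 barcodes than most of them. The members and lists were chosen with earlier results of these data known. The ratio calculation was tested on simulated data. Python 3.11.15, numpy 2.4.6, scipy 1.17.1 and pandas 2.3.3 were used. Alternatives changed the rule, the populations, the scaling, the thresholds and the libraries. Gene coordinates are from GENCODE and promoter sequences from RefSeq.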

Additional observations from a re-analysis of the deposited data

How the results depend on the processing

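The 72 cells became 40 with a limit of 0.5% on the microglial genes, and ranged from 41 (without library 6) to 72 when libraries were left out in turn. With at least 1 or 3 UMIs of Cd209a they numbered 80 and 68, and with Cst3 left out of the 6 genes 81. Against the Ccr2 and Ly6c2 barcodes, the 257 higher and 288 lower genes became 605 and 621 after thinning to 1000 UMIs, 542 and 665 at a minimum mean of 10 CPM, and 39 and 71 at 4-fold. Leaving out libraries gave 261 to 409 higher and 288 to 419 lower genes, with 409 and 419 without library 6, where 192 of the 257 higher genes remained. Without the microglial limit on the Ccr2 and Ly6c2 barcodes 282 genes were higher and 460 lower. Against microglial barcodes, 4-fold gave 410 higher and 414 lower genes and a minimum of 10 CPM gave 1546 higher and 1536 lower ones. Leaving out libraries gave 1154 to 1242 higher and 854 to 902 lower genes there. Under 23 alternatives, of which 5 were added after seeing the data, 2236 single-gene ratios were recomputed. A ratio could be counted as turned only if its main value was at least 2 or at most 0.5. Ratios within 2-fold that crossed 1 were not counted. By this rule 2 turned: Itgax to 0.990 under the limit of 0.5% and Basp1 to 0.233 without the microglial limit on the other barcodes. The cause was not tested. Another 216 against microglial and 147 against Ccr2 and Ly6c2 barcodes left their counting interval, and 808 and 1063 stayed within it. No paired analysis was possible because neither the labels nor the matrix tie a library to a mouse, although the labels number 3 mice in each group. At this depth, 1 UMI in all 72 cells is 2.63 CPM, so genes with few UMIs cannot be ranked.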
